A study of Arabidopsis thaliana with 6 samples.

Results

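Transcript levels of 7 regulators of the cold response were followed in seedlings of Arabidopsis thaliana that overexpress the clock gene TOC1 (TOC1-ox) and in wild-type (WT) seedlings. The genes are COR27 and COR28, the C-repeat binding factors CBF1, CBF2 and CBF3, and the zinc-finger genes ZAT10 and ZAT12. Each was read from 1 probe set, out of 22746 probe sets that were tested. COR27 (AT5G42900, 249174_at), COR28 (AT4G33980, 253322_at) and ZAT10 (AT1G27730, 261648_at, also called STZ) each had a single probe set in the platform annotation used. For the other 4 genes the annotation used lists no probe set, and they were taken by the array's probe set numbers: 254074_at for CBF1 (AT4G25490), 254075_at for CBF2 (AT4G25470), 254066_at for CBF3 (AT4G25480) and 247655_at for ZAT12 (AT5G59820, also called RHL41). Those 4 assignments could not be checked against a probe annotation here.

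There were 3 Affymetrix arrays of TOC1-ox and 3 of WT, which the series describes as biological replicates. Both groups were ecotype Col0, were 12 days old, had grown on MS3 medium in cycles of 12 h of light and 12 h of dark, and were harvested at zeitgeber time 15, in the dark. The labels record no cold treatment for either group. Which promoter drives TOC1, and how many independent lines were used, the labels do not state. The values are deposited log2 values made with a procedure, GCRMA, that gathers dim probe sets near the bottom of the scale. In these whole seedlings, fewer cells with a transcript and less of it per cell cannot be told apart.

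Plants that sense cold switch on a wave of transcription factors, of which the CBF proteins are the best known. CBF proteins belong to the AP2/ERF family and bind the C-repeat/dehydration-responsive element in front of genes for protective proteins such as COR15A. The circadian clock gates this wave: CBF transcripts are higher by day than by night in plants kept warm. ZAT10 and ZAT12 are C2H2 zinc-finger proteins induced by cold and by several other stresses such as salt, wounding, strong light and oxidants. COR27 and COR28 are a pair of related proteins that accumulate towards the evening. They repress clock genes, TOC1 among them, and act in flowering, light signalling and freezing tolerance.

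The members showed 3 patterns. COR27 was lower in TOC1-ox and passed the test, and its relative COR28 was lower without passing it. ZAT10 was higher and passed, and ZAT12 was higher without passing. The 3 CBF probe sets lay at the bottom of the scale on all 6 arrays. An adjusted p under 0.05 (limma, Benjamini-Hochberg over all probe sets tested) was counted as a call, and 2 of the 7 members were called, against 1.78% of all probe sets. One call was higher and the other lower, where 1.08% of all probe sets were called higher and 0.703% lower. At 4 members, COR27, COR28, ZAT10 and ZAT12, no TOC1-ox array overlapped with a WT array. This was so at 20.1% of all probe sets. The median difference was -0.04 over the 7 members and -0.02 over all probe sets, and the median size of the difference was 1.28 over the members and 0.15 over all. The members were picked with earlier results of these arrays known, so these shares describe them and do not test them.

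**Figure D1:**
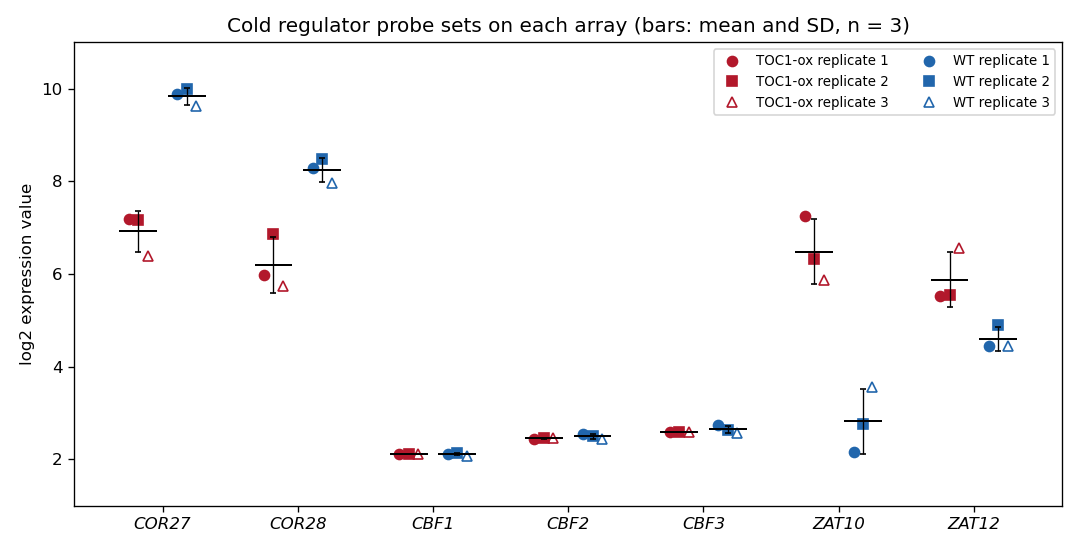
Log2 expression value of each member's probe set on each array, TOC1-ox on the left of each pair and WT on the right, with the mean and SD of 3 arrays. COR27 and COR28 are lower and ZAT10 and ZAT12 higher in TOC1-ox with no overlap, and the 3 CBF probe sets lie between 2.08 and 2.73 on all 6 arrays.

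The arrays were not equally alike. Across probe sets TOC1-ox replicate 3 had r = 0.977 and 0.978 with TOC1-ox replicates 1 and 2, which had 0.996 with each other, and 0.981 with WT replicate 3. The bacterial labelling spike-ins, 24 probe sets, had medians of 7.01 in TOC1-ox replicate 3 and 7.59 in WT replicate 3, against 2.81 to 4.84 on the other 4 arrays. Array medians were between 6.17 and 6.27. As a check of the tissue, 2 of 5 leaf markers and 1 of 5 root markers could be read. The leaf genes RCA (rubisco activase) and PSAE1 (a photosystem I subunit) had mean log2 values of 14.17 and 14.32 in TOC1-ox, and 13.71 and 14.28 in WT. The root-hair expansin gene EXP7 had 6.62 ± 0.26 in TOC1-ox and 5.77 ± 0.28 in WT (SD, n = 3 each; limma, adjusted p = 0.129). Its groups did not overlap, as at 20.1% of all probe sets. The part of this root gene in the members' differences was not tested, and of the 6 seed markers listed none could be read. TOC1 itself has no probe set in the annotation used, so its level is not analysed here.

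COR27 had the lowest adjusted p of the 7. Its log2 values were 7.19, 7.17 and 6.40 in TOC1-ox replicates 1, 2 and 3, against 9.88, 9.99 and 9.63 in WT. The highest TOC1-ox value lay 2.45 below the lowest WT value. The means were 6.92 ± 0.45 in TOC1-ox and 9.83 ± 0.18 in WT (SD, n = 3 each). The difference was -2.92 ± 0.25 (standard error), a 7.55-fold lower value in TOC1-ox, with a 95% confidence interval of -3.57 to -2.27 (limma, adjusted p = 0.0213). By the size of its difference COR27 ranked 24 among the 160 probe sets called lower. Both groups lay well above the bottom of the scale, where folds are compressed.

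COR28 followed the same direction over a smaller distance. It had 5.97, 6.87 and 5.73 in TOC1-ox replicates 1, 2 and 3, against 8.30, 8.49 and 7.97 in WT. The groups did not overlap, and the highest TOC1-ox value, that of replicate 2, lay 1.10 below the lowest WT value. The means were 6.19 ± 0.60 in TOC1-ox and 8.25 ± 0.26 in WT (SD, n = 3 each). The difference was -2.06 ± 0.34 (standard error), which is 4.17-fold, with an interval of -2.93 to -1.19, and it did not pass over all probe sets (limma, adjusted p = 0.064). Over 15 other settings it passed in 5, with an adjusted p (limma) of 0.0174 to 0.224. The TOC1-ox values of COR28 spread more than those of COR27 between replicates 1 and 2, which differed by little at COR27. Replicate 3 had the lowest value of its group for both genes in TOC1-ox and also in WT.

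The protein-coding genes on either side of COR28 in the TAIR10.1 assembly could be read, while those next to COR27 have no probe set in the annotation used. AT4G33985 differed by 0.26 ± 0.18 and AT4G33970, which was near the lowest values in TOC1-ox and WT alike, by -0.01 ± 0.04 (standard error; limma, adjusted p = 0.587 and 0.955). Neither neighbour passed the test.

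**Figure D2:**
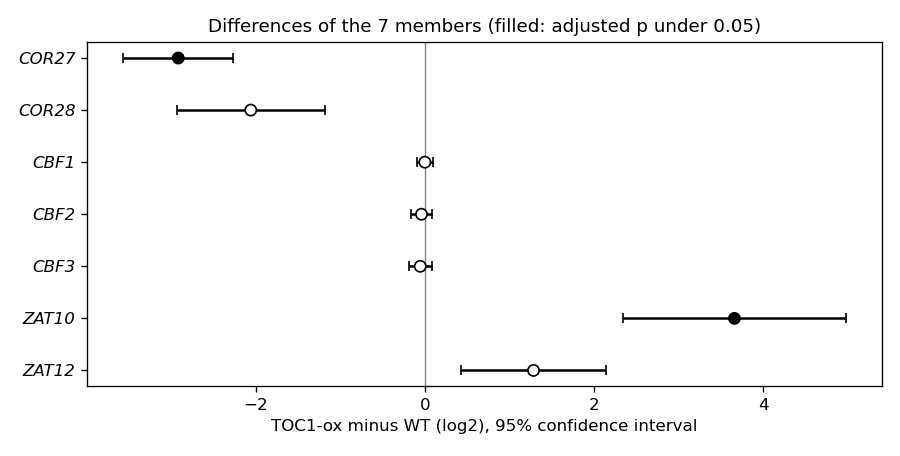
Difference between TOC1-ox and WT (log2) for each member with its 95% confidence interval from limma, n = 3 arrays each; filled points have an adjusted p under 0.05. COR27 (-2.92) and ZAT10 (3.66) are filled, and the CBF intervals lie close to 0.

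The CBF probe sets gave no signal above the bottom of the scale. CBF1 had 2.112, 2.103 and 2.106 in TOC1-ox and 2.117, 2.128 and 2.079 in WT. CBF2 had 2.442, 2.453 and 2.457 in TOC1-ox and 2.549, 2.497 and 2.429 in WT. CBF3 had 2.585, 2.595 and 2.587 in TOC1-ox and 2.730, 2.633 and 2.571 in WT. In all 3 genes the TOC1-ox values lay within the range of the WT values. The differences were -0.0009 ± 0.04 for CBF1, -0.04 ± 0.05 for CBF2 and -0.06 ± 0.05 for CBF3 (standard error; limma, adjusted p = 0.993, 0.796 and 0.74). Their 95% intervals were -0.10 to 0.09, -0.16 to 0.08 and -0.19 to 0.08.

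These narrow intervals belong to the compressed end of the scale and set no limit on the fold of the transcripts. The values bound the signal from above only, as no CBF value was higher than 2.73. Of the probe sets tested, 8.77% had a lower mean than CBF1 in TOC1-ox and 8.59% in WT. The lower quartile of the arrays was 2.51 to 2.61. Among the 6906 probe sets with a mean under 3, 30.4% of all tested, the median size of the difference was 0.02, and 87.4% differed by less than 0.1. The small order within the CBF values was also that of this class: WT replicate 3 was the lowest of the 6 arrays at all 3 CBF probe sets, as it was at 86.6% of the class. A CBF difference within this low range was therefore not detectable with these arrays at this hour. A rise out of the range, such as that of ZAT10 from 2.16 in WT replicate 1 to 7.25 in TOC1-ox replicate 1, was not seen at the CBF probe sets. The 3 genes lie next to each other on the chromosome in the order CBF2, CBF3, CBF1 in the TAIR10.1 assembly and are close relatives. Whether their probe sets tell the 3 transcripts apart was not tested.

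ZAT10, a repressor of transcription, had the largest difference of the members. Its log2 values were 7.25, 6.32 and 5.88 in TOC1-ox replicates 1, 2 and 3, against 2.16, 2.75 and 3.56 in WT. The lowest TOC1-ox value, replicate 3, lay 2.32 above the highest WT value, which was also replicate 3. The means were 6.48 ± 0.70 in TOC1-ox and 2.82 ± 0.70 in WT (SD, n = 3 each). The difference was 3.66 ± 0.51 (standard error), with an interval of 2.34 to 4.98 (limma, adjusted p = 0.0485). All 3 WT values were under 4, in the compressed part of the scale, and no fold is given. The genes next to ZAT10 have no probe set in the annotation used.

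ZAT12, the stress-responsive relative of ZAT10, was higher in TOC1-ox by less. It had 5.53, 5.55 and 6.56 in TOC1-ox replicates 1, 2 and 3, against 4.44, 4.89 and 4.45 in WT. The groups did not overlap, with a gap of 0.63 between the lowest TOC1-ox and the highest WT value. The means were 5.88 ± 0.59 in TOC1-ox and 4.59 ± 0.26 in WT (SD, n = 3 each). The difference was 1.28 ± 0.33 (standard error), which is 2.43-fold, with an interval of 0.43 to 2.14. It did not pass over all probe sets (limma, adjusted p = 0.155). With arrays weighted by their quality the difference was 0.80 and passed (0.0399), in a fit that called 6182 probe sets. Its neighbours SBT5.4 and AT5G59830 differed by -0.0035 ± 0.04 and -0.15 ± 0.11 (standard error; limma, adjusted p = 0.977 and 0.623), and SBT5.4 lay at the bottom of the scale.

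The arrays numbered 3 did not stand on the same side for all members. TOC1-ox replicate 3 lay below the mean of replicates 1 and 2 by 0.78 at COR27, 0.69 at COR28 and 0.91 at ZAT10, and above it by 1.02 at ZAT12. Within the arrays numbered 3, which the spike-ins set apart, TOC1-ox minus WT was -3.24 for COR27, -2.24 for COR28, 2.32 for ZAT10 and 2.11 for ZAT12. Within the arrays numbered 1 and 2 the differences were -2.76, -1.97, 4.33 and 0.87 in the same order. Since the groups do not overlap at these 4 genes, their direction in either set of arrays was fixed, and the sizes alone are of use. The set with 1 array per group has no replicate check. With arrays 1 and 2 only, limma gave an adjusted p of 0.0127 for COR27 and 0.0469 for ZAT10, against 0.101 for COR28 and 0.117 for ZAT12.

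Whether a member was called changed when single arrays were left out. Without TOC1-ox replicate 3 all 4 genes passed: COR27 differed by -2.66, COR28 by -1.83, ZAT10 by 3.96 and ZAT12 by 0.94 (limma, adjusted p = 0.0033, 0.0387, 0.0206 and 0.0385). That fit called 2955 of 22746 probe sets. Without any other single array none of the 7 members passed, while 4 of them had an unadjusted p under 0.05 in each of these fits, as had 11.3% to 21.4% of all probe sets. Those were the same 4 genes, except that without WT replicate 3 CBF2 stood in place of ZAT12. For COR27 the adjusted p (limma) was then 0.0935 and 0.0834 without TOC1-ox replicates 1 and 2, and 0.0956, 0.103 and 0.0631 without WT replicates 1, 2 and 3. For ZAT10 it was 0.148 and 0.16 without TOC1-ox replicates 1 and 2, and 0.143, 0.173 and 0.0835 without WT replicates 1, 2 and 3. Those fits called between 8 and 188 probe sets in all. The size of the COR27 difference stayed between -3.05 and -2.66 and that of ZAT10 between 3.27 and 4.03. Of 9 other alternatives, limma called COR27 under 8 and ZAT10 under 5. A replicate block ended both calls, and the batch term, quantile normalization and the robust prior ended that of ZAT10 (limma, adjusted p = 0.0702, 0.0676 and 0.0595).

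**Figure D3:**
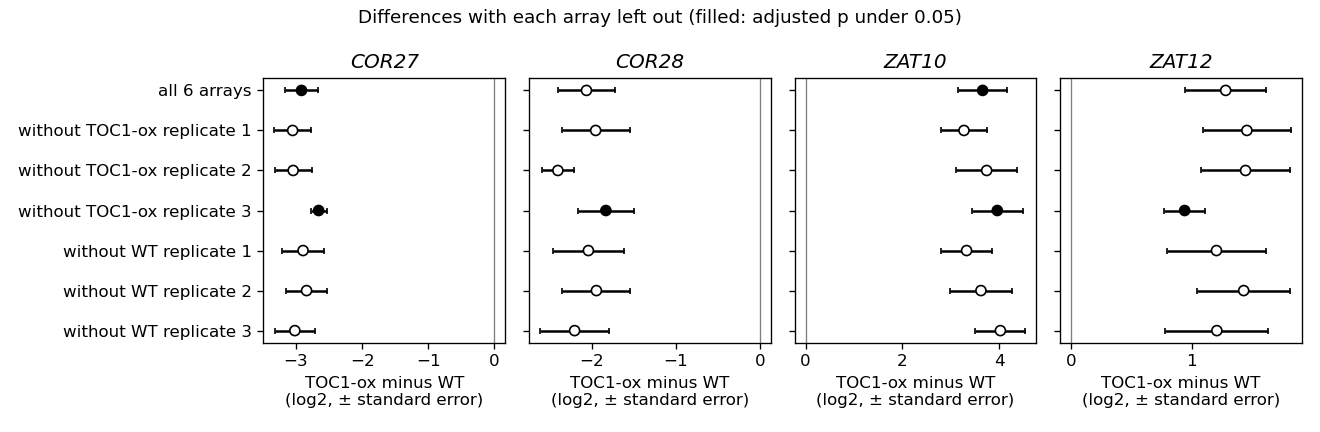
Difference between TOC1-ox and WT (log2, ± limma's standard error) of COR27, COR28, ZAT10 and ZAT12 with all 6 arrays and with each array left out; filled points have an adjusted p under 0.05. All 4 are filled without TOC1-ox replicate 3, and none is filled without any other single array.

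The genes with the profiles most like those of COR27, COR28 and ZAT10 were found by the root mean square distance between log2 values over the 6 arrays, each profile centred on its own mean. There were 13510 candidate probe sets with a single gene. The closest to COR27 were AT4G21020, AT3G53040 and AT5G64110, at distances of 0.30, 0.34 and 0.35, with differences of -2.61, -2.68 and -2.79. For AT4G21020 the values were 4.42, 4.25 and 3.51 in TOC1-ox and 6.26, 7.23 and 6.51 in WT, so it too was lowest in TOC1-ox replicate 3. COR28 lay at a distance of 0.51 from COR27, and 8 candidates lay closer. Seen from COR28, 20 candidates were closer than COR27, and the nearest were AT1G75770, AT1G22330 and the expansin gene EXPA8 at 0.28, 0.33 and 0.33. ZAT10 was most like AT3G19550, JAL23 and AT5G09570, at 0.31, 0.42 and 0.44. Those had differences of 3.70, 3.42 and 3.77, while ZAT12 lay at 1.45 from ZAT10, with 490 candidates closer. The WT values of AT3G19550 and JAL23 were all under 4, in the compressed part of the scale. So were the TOC1-ox values of AT1G75770 and AT3G53040. The profiles share the 6 arrays and the group difference, so the distances describe these arrays only.

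**Figure D4:**
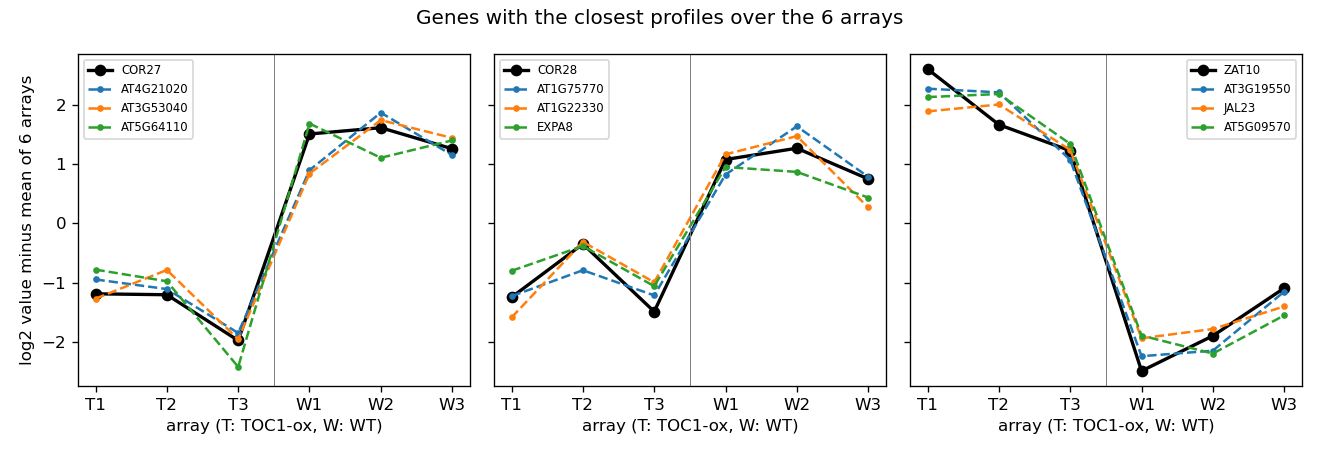
Log2 value minus the mean of 6 arrays for COR27, COR28 and ZAT10 (black) and the 3 genes with the closest profile to each (dashed), over TOC1-ox arrays (T1 to T3) and WT arrays (W1 to W3). TOC1-ox replicate 3 is the lowest array of the COR27 profile, and WT replicate 3 is the highest WT array of the ZAT10 profile.

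Other genes of the pathway were taken from 8 lists with 107 entries, of which 19 could be read under a name. None of the 19 passed the test over all probe sets (limma), against 1.78% of all, and 6 had an unadjusted p under 0.05, as had 16.4% of all probe sets. Of the regulators upstream of the CBF genes, 3 of 18 could be read and none passed. AT1G16670, listed as CRPK1, a membrane-bound kinase of cold signalling, differed by 0.18 ± 0.20, and SIZ1, a SUMO ligase that acts on the CBF activator ICE1, by -0.17 ± 0.13 (standard error; limma, adjusted p = 0.789 and 0.629). The median of that list was -0.13. TINY, the only other DREB family factor of 11 that could be read, had 7.64, 7.34 and 7.01 in TOC1-ox against 6.66, 6.63 and 6.97 in WT (limma, adjusted p = 0.241). Its groups did not overlap, but TOC1-ox replicate 3 and WT replicate 3 lay only 0.04 apart.

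Of 14 further C2H2 zinc fingers of the ZAT type, 6 could be read and 4 of them had means under 4 in both groups. The median difference of the 6 was 0.06, with 3 above 0 and 3 below. AT5G03510 had 3.98, 3.75 and 3.91 in TOC1-ox against 2.79, 2.53 and 3.27 in WT, a difference of 1.01 ± 0.20 (standard error; limma, adjusted p = 0.0949), and AT2G28710 differed by 0.36 ± 0.14 (adjusted p = 0.296). AT5G03510 showed no overlap between the groups, as ZAT10 and ZAT12 did, but its values lay near the bottom of the scale. Of the 15 early cold-induced transcription factors, only AT1G69570, listed as CDF5, could be read, and it lay at the bottom of the scale with 1.80 in TOC1-ox and 1.80 in WT.

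All 4 of 15 effector genes that could be read had negative differences and none passed, where the median difference over all probe sets was -0.02. Their median of -2.30 lay between a pair with large and a pair with small differences. The chloroplast-protecting COR15A and COR15B, both targets of CBF factors, had the largest, -4.53 ± 0.94 and -3.80 ± 0.72 (standard error; limma, adjusted p = 0.1 and 0.0826). LTI30 and COR47 differed by only -0.81 ± 0.48 and -0.33 ± 0.48 (standard error, limma adjusted p = 0.512 and 0.863), and their groups overlapped. The COR15A values were 9.45, 8.26 and 8.17 in TOC1-ox and 14.11, 14.13 and 11.22 in WT. WT replicate 3 was the lowest WT array for COR15A, as it was for COR27 and COR28.

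Of the light signalling partners of COR27 and COR28, 1 of 9 could be read: HYH, the relative of the light regulator HY5, had 3.13, 2.76 and 5.26 in TOC1-ox and 3.29, 3.23 and 3.17 in WT (limma, adjusted p = 0.861). Only TOC1-ox replicate 3 stood above the WT values. Of 13 clock factors, 2 could be read. AT5G52660 (RVE6) differed by -1.11 ± 0.50 and GI by -0.04 ± 0.05 (standard error; limma, adjusted p = 0.374 and 0.779), and the GI values were all near the lowest on the arrays. The RVE6 values were 6.28, 6.43 and 4.69 in TOC1-ox and 7.03, 6.92 and 6.77 in WT, with TOC1-ox replicate 3 far below the other arrays. Of 12 touch, jasmonate and oxidative stress genes, only WRKY53, a stress- and senescence-related factor, could be read. It had 7.31, 6.69 and 5.83 in TOC1-ox and 3.84, 3.45 and 4.92 in WT, a difference of 2.54 ± 0.55 (standard error; limma, adjusted p = 0.11). As at ZAT10, its TOC1-ox replicate 3 was the lowest of its group and its WT replicate 3 the highest of its group.

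**Figure D5:**
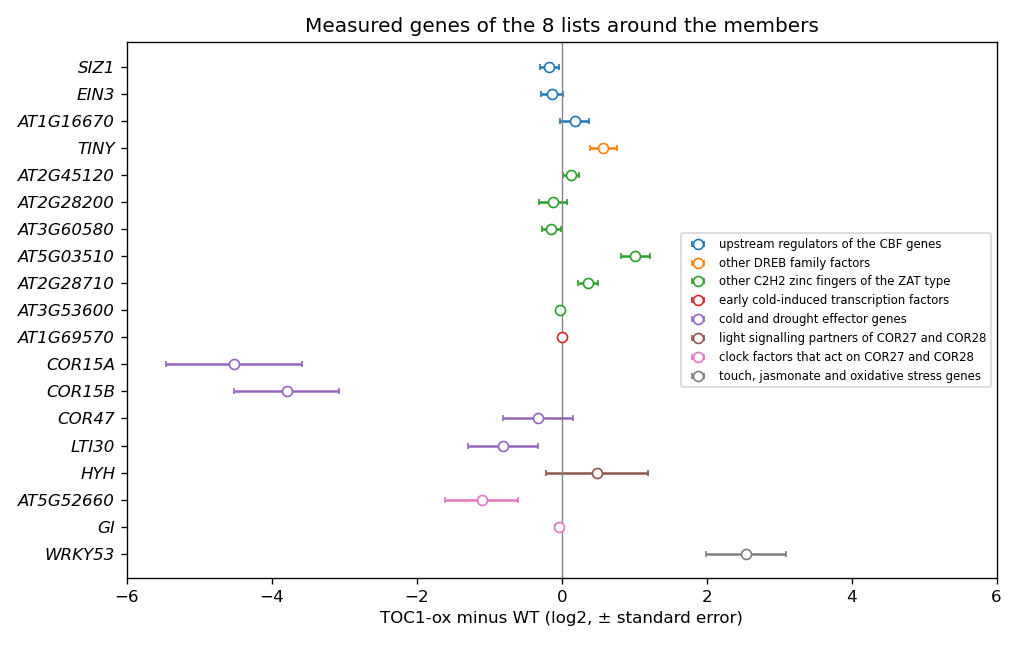
Difference between TOC1-ox and WT (log2, ± limma's standard error, n = 3 arrays each) for the 19 genes of the 8 lists that could be read, coloured by list. COR15A and COR15B lie farthest below 0 and WRKY53 farthest above it, and none passed the test.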

How the data were processed

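Deposited log2 values of 22810 probe sets on 6 arrays were used. Per the submitters' processing notes the authors used GCRMA and limma, with versions and genome build not given in the sources used here. Control probe sets (64) were left out and no other filter was set. The difference (TOC1-ox minus WT, two-sided, no covariate) was estimated over all 22746 probe sets by lmFit and eBayes of limma 3.58.1 under R 4.3.3, with Benjamini-Hochberg adjustment. The prior had 1.02 degrees of freedom. Each difference is given with the standard error from limma. Gene names came from the platform annotation, updated by gene identifier from the TAIR10.1 table: 13513 probe sets had 1 gene, 503 several. A gene was read from its probe set with the highest mean.

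All 7 members are named. From each list, every called gene and up to 2 others with the largest difference are named, and the 3 genes closest in profile to COR27, COR28 and ZAT10. LTI30 and COR47 are named besides, and other list genes enter counts and the plot only. The members, lists and tests were chosen with earlier results of these data known. The fit was tested on simulated data. Arrays have no read depth; precision is set by their number. Alternatives were normalization, centring, a dim-probe filter, variance models, array weights, the replicate block, a batch term and left-out arrays. Figures were drawn with matplotlib 3.10.9.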

Additional observations from a re-analysis of the deposited data

How the results depend on the processing

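COR27, COR28, ZAT10 and ZAT12 had the same direction under all 15 alternatives, which the lack of overlap between the groups fixes for left-out arrays. The number of members called (2) was 1 after quantile normalization, 1 with a robust prior, 1 with the batch term for the arrays numbered 3, 4 with array weights, and 0 to 4 with each array left out; 4 of the 7 members had an unadjusted p under 0.05 by limma under each of these settings, as had 16.1%, 15.7%, 20.3% and 43.7% of all probe sets in the same order and 11.3% to 26.6% with each array left out. COR27 ran from -3.05 to -2.66 with each array left out (limma, adjusted p from 0.0033 to 0.103). COR28 passed after centring (-2.09, adjusted p = 0.0411), when only means of at least 4 were kept (-2.06, 0.0174), a variance trend (-2.06, 0.0339) and array weights (-1.89, 0.0195), and ran from -2.40 to -1.83 with each array left out (limma, 0.0387 to 0.224). ZAT10 did not pass after quantile normalization (3.67), with a robust prior (3.66) or with the batch term (3.66), and ran from 3.27 to 4.03 with each array left out (limma, 0.0206 to 0.173). ZAT12 passed with array weights (0.80, limma adjusted p = 0.0399) and ran from 0.94 to 1.46 with each array left out (0.0385 to 0.356). CBF1 changed sign about 0, to 0.0049 after quantile normalization and within -0.0156 to 0.0092 with each array left out. The cause of these changes was not tested. Leaving out an array also leaves fewer degrees of freedom, and the part of this was not tested either.

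Over all 22746 probe sets, limma called 405. It called 248 after quantile normalization, 262 with a robust prior, 6182 with array weights, 2201 with the arrays numbered 1 and 2 only, and 8 to 2955 with each array left out. When only means of at least 4 were kept, it called 852 of 14526 probe sets, which do not include those of the CBF members. Array weights ran from 0.135 for WT replicate 3 to 4.41 for TOC1-ox replicate 2. A replicate block in limma left 0 probe sets and 0 members called, with 4317 probe sets (19.0%) and 4 members at an unadjusted p under 0.05; COR27 (-2.92) and ZAT10 (3.66) then had adjusted p of 0.0696 and 0.139. Same-numbered arrays deviated from their group means with correlations of 0.299, -0.012 and 0.082. That of the arrays numbered 1 was the largest between any TOC1-ox and WT array, and WT replicate 3 correlated best with TOC1-ox replicate 3. TOC1-ox replicate 3, however, correlated best with WT replicate 2 (0.109). These values do not settle whether the numbers pair the arrays, and the main fit took the arrays as unpaired. Averaging several probe sets of a member was not run, since each was read from 1. For CBF1, CBF2, CBF3 and ZAT12 the annotation used lists no probe set, so further ones could not be sought.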

Other observations

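Related members were also set against each other within each array, in 2 pairs chosen after their values were seen. COR27 minus COR28 was 0.73 ± 0.46 in TOC1-ox and 1.58 ± 0.08 in WT (SD, n = 3 each), so that the difference of COR27 was larger in size than that of COR28 by 0.86 on the log2 scale (exact two-sided permutation test over arrays, p = 0.1, the smallest that 3 against 3 arrays allow, and 0.1 after Benjamini-Hochberg adjustment over the 2 pairs). This value was 0.64 to 1.10 with each array left out. The ZAT pair is not given, since the WT values of ZAT10 lie in the compressed part of the scale.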
